A study of Mus musculus with 6 samples.

Results

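Ribosome biogenesis genes of the kind that MYC is known to drive were followed in GC B cells that carried or lacked HVEM. The set was 46 named genes of ribosome production, taken by symbol from the deposited expression table, which lists 23337 genes. All 46 were in the table and 45 had enough reads to be tested. They were grouped by role. Transcription of ribosomal DNA by RNA polymerase I had 6 genes, and small nucleolar ribonucleoproteins (snoRNPs) and rRNA modification had 7. The small ribosomal subunit had 12, the large subunit 15 and the organisers of the nucleolus 5, with *Tbrg4* apart. No measured value entered the choice, although the list was drawn up with earlier results of these data known.

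The RNA-seq data came from 6 samples of GC B cells from mixed bone marrow (BM) chimeras, 3 WT and 3 *Hvem*-/-, with 50000 sorted cells (B220+ IgDlo CD38lo GL7+ Fas+) for each sample. The WT donor cells were C57BL/6 CD45.1/2 by the labels, and CD45.1 by the study's own description. The *Hvem*-/- donor cells were C57BL/6 CD45.2 and carried a deletion of *Hvem* (*Tnfrsf14*) in the whole germline, not in B cells alone. Every sample came from chimeras given 8 weeks to reconstitute, then immunized with the hapten-carrier antigen NP-CGG in alum and taken 11 days later. Hosts for chimeras were irradiated, the CD45.1 mice were adult, and no age is given for single samples. The WT samples are numbered 1, 3 and 5 and the *Hvem*-/- samples 2, 4 and 6. The study places both genotypes in the same chimeras, but no source says which WT and *Hvem*-/- samples share a mouse, or that each sample of a genotype came from a separate mouse, so p-values here measure the spread between these samples. Genotype and the congenic donor line went together and cannot be told apart.

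Making ribosomes is the largest biosynthetic task of a dividing cell. RNA polymerase I copies ribosomal DNA into a long precursor in the nucleolus, snoRNPs guide its chemical modification, and the small and large subunits are then cut, folded and exported by separate sets of assembly factors. The transcription factor MYC, with its partner MAX, binds E-box DNA (CACGTG) and is known to raise many genes at each of these steps. In the GC, MYC is induced in B cells of the light zone that have received T cell help, and it precedes their re-entry into division. HVEM on B cells engages BTLA on T cells. The study asked whether HVEM-deficient GC B cells differ in the genes that follow T cell help, MYC targets among them. By gene-set enrichment it reported more MYC signatures in *Hvem*-/- GC B cells, and enrichment of rapamycin-sensitive genes that follow T cell help. It also reported cell-cycle processes among its top differing genes. The counts below are made gene by gene, which is a different measure, and do not test those results.

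The E-box letters were looked for in the members' own promoters, from 250 bases before to 50 bases after the RefSeq gene start (assembly GRCm38.p6). A promoter sequence was found for 41 members, and none was used here for *Npm1*, *Bop1*, *Rrp12*, *Tcof1* and *Fbl*. Of the 41 promoters, 9 (21.95%) held CACGTG, against 8.09% of all 27025 genes with a promoter sequence and 12.1% of the 6979 of them that were tested. The members were picked as genes of a kind that MYC is known to drive, so their larger share is not a result of these data. CACGTG reads the same on both strands. The 10 matches are shown because they are the part of these promoters that the MYC-MAX motif could pair with, each with up to 12 bases on either side, written 5′ to 3′ on the strand of the gene, with the motif in capitals.
Rrn3, first match (chr16:13780472-13780501, + strand, motif starting 215 bases before the gene start): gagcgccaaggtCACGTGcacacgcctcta
Rrn3, other match (chr16:13780639-13780668, + strand, 48 bases before): ttacgctctgctCACGTGggccgcgtcccg
Imp4 (chr1:34439696-34439725, + strand, 121 bases before): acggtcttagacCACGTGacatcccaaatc
Nop2 (chr6:125131811-125131840, + strand, 60 bases before): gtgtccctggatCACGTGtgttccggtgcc
Exosc5 (chr7:25659097-25659126, + strand, 44 bases before): taaacgctgagcCACGTGctagggccaact
Pes1 (chr11:3963965-3963994, + strand, at base 3 of the transcript): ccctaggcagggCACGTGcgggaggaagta
Wdr43 (chr17:71616220-71616249, + strand, at base 18): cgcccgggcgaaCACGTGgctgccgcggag
Grwd1 (chr7:45830740-45830767, - strand, at base 35): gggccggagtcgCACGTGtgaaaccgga
Utp20 (chr10:88826765-88826789, - strand, at base 38): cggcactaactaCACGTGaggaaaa
Mybbp1a (chr11:72441355-72441376, + strand, at base 41): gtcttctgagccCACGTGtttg

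*Rrn3*, which encodes the factor that brings RNA polymerase I to its promoter, was the only member with a pair of matches. The other matches fell in genes of the small subunit (*Imp4*, *Wdr43*, *Utp20*), the large subunit (*Exosc5*, *Pes1*, *Grwd1*), rRNA methylation (*Nop2*) and the nucleolus (*Mybbp1a*). The match is a description of letters and says nothing of binding in these cells. The 9 genes with a match had a median log2 fold change (*Hvem*-/- over WT) of -0.13, and 1 of them, *Utp20*, lay above 0. The 31 tested members whose promoter held none had a median of 0.05, with 18 above 0. None of the 9 and 3 of the 31 had an unadjusted p under 0.05, as did 11.9% of all genes tested, and the difference between these sets was not tested.

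Libraries held 2557741 to 3636163 reads in genes for WT and 2505918 to 3321048 for *Hvem*-/-, and 9653 genes were tested. Values are normalized counts, that is read counts divided by the authors' size factor for the sample. Of the targeted gene, *Tnfrsf14*, WT samples 1, 3 and 5 held 13, 11 and 17 reads and *Hvem*-/- samples 2 and 4 held 0, in keeping with their labels. *Hvem*-/- sample 6 held 4 reads (4.73 normalized, against 12.2 to 12.7 in WT), below every WT sample but not absent, and it keeps its label's name here. Values without sample 6 are given for several genes that it moves, not for all. Without it 0 members passed the threshold (smallest edgeR adjusted p = 0.410). The GC B cell markers were present in every sample, their summed normalized counts running from 16894 to 18602 in WT and from 18186 to 21127 in *Hvem*-/-, and 0 of 10 passed the test. Summed T cell markers were 404 to 434 in WT and 212 to 348 in *Hvem*-/- (1 of 7 tested markers higher and 6 lower, 0 past the threshold, none at 0 in every sample), and follicular B cell markers were 522 to 692 and 352 to 405 (4 of 4 lower, 1 past the threshold). Plasma cell markers summed to 633 to 850 in WT and 724 to 760 in *Hvem*-/- (*Tnfrsf17* at 0 in every sample) and myeloid markers to 227 to 382 and 145 to 538, with 0 past the threshold in either list. The part of these cells in the results was not tested.

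No ribosome biogenesis gene passed the threshold between *Hvem*-/- and WT GC B cells. By edgeR's quasi-likelihood test, 0 of 45 members had a Benjamini-Hochberg adjusted p under 0.01, against 0.218% of all genes tested (0.186% higher in *Hvem*-/- and 0.0311% lower). The smallest adjusted p of a member was 0.178, for *Ubtf*. The targeted gene *Tnfrsf14*, which had few reads, did not pass it either (log2 fold change -3.04, edgeR adjusted p = 0.178). Missing the threshold thus does not show that a gene was unchanged. DESeq2 and limma also placed 0 members past the threshold. At an unadjusted p under 0.05, 5 members were found, 1 higher in *Hvem*-/- (*Npm1*) and 4 lower (*Ubtf*, *Tbrg4*, *Nob1* and *Fbl*), or 11.1% of the members against 11.9% of all genes tested. The share of members was close to that of all genes. Of all genes tested, 6.72% were higher and 5.22% lower by that rule.

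The estimated differences were mostly small and lay in both directions. Their median log2 fold change was -0.05 beside -0.0058 for all genes tested, with the middle of the members between -0.28 and 0.15 (the first and the third quartile) and extremes of -1.07 for *Nob1* and 0.43 for *Wdr12*. Of the 45, 20 lay above 0 and 25 below, which puts 44.4% above 0 where all genes had 49.2%. Intervals were narrow for some members and wide for others. For 37 of the 45 members the 95% confidence interval of the fold change lay within a 2-fold change in either direction. The same held for 6661 of all 9653 genes tested. Within 1.5-fold lay the intervals of 19 members and of 3217 of all genes tested. Of the 23 members with at least 100 reads in every sample, all 23 had an interval within 2-fold, 18 had one within 1.5-fold, and the median was 0.05 with 14 above 0 and 9 below.

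**Figure D1:**
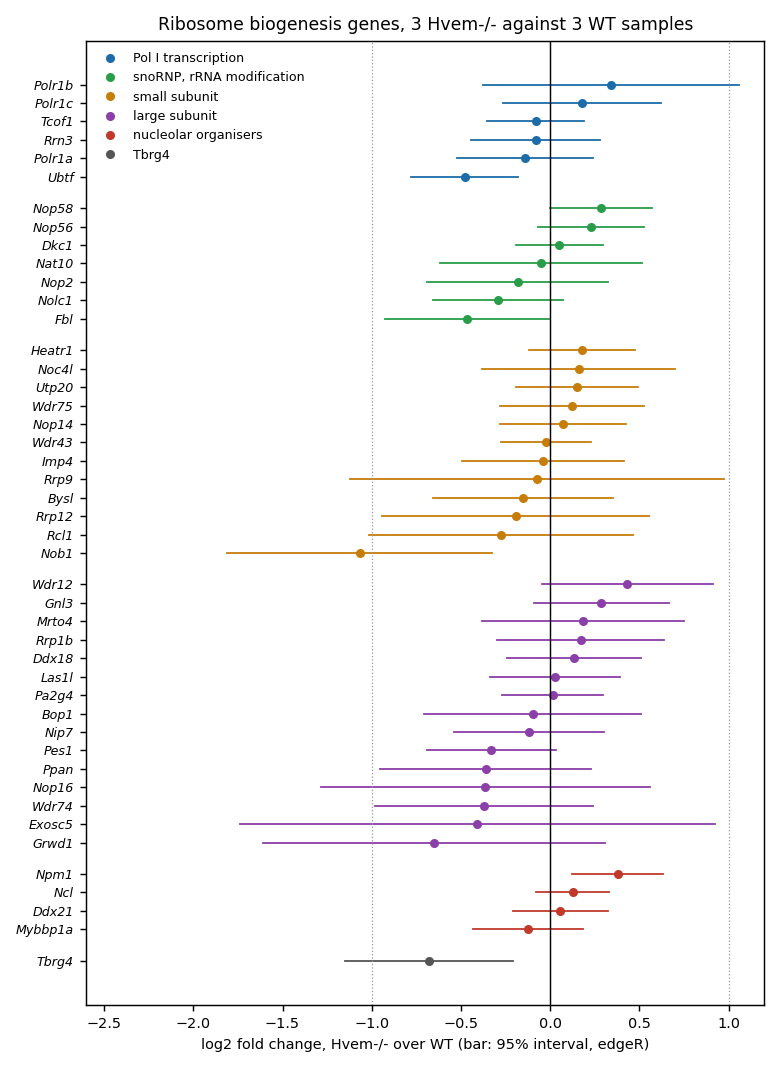
Log2 fold change (x axis, *Hvem*-/- over WT) of the 45 tested ribosome biogenesis genes, grouped and coloured by role, with points for edgeR's estimate, bars for the 95% interval and dotted lines at a 2-fold change. Points lie on both sides of 0 in every group with several genes, and 5 intervals leave out 0, *Npm1* above it and *Ubtf*, *Tbrg4*, *Nob1* and *Fbl* below it.

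Levels spread over orders of magnitude. Per kilobase of the longest transcript annotated as a principal isoform (APPRIS), the mean normalized count ran from 2.82 for *Npm3* to 4993 for *Npm1*, with a median of 51.7. After *Npm1* came *Nop56* at 608, *Ncl* at 534, *Nop58* at 446, *Dkc1* at 364 and *Pa2g4* at 358 per kilobase. *Ncl* and *Wdr12* have long principal transcripts (8202 and 10012 bases), which lowers their level on this scale. The order depends on the transcript used, since on the longest transcript of any kind *Nop56* and *Nop58* were at 315 and 80.4 per kilobase, below *Ncl* and *Dkc1*.

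The nucleolar organisers held both the highest level and the single member that was higher in *Hvem*-/- by the unadjusted rule. *Npm1* (chr11:33152287-33163206, - strand) encodes nucleophosmin, a histone chaperone that shapes the outer layer of the nucleolus and escorts ribosomal particles. Its normalized counts were 6603, 7661 and 6963 in WT samples 1, 3 and 5 and 7299, 9430.3 and 10963 in *Hvem*-/- samples 2, 4 and 6. *Hvem*-/- samples 4 and 6 lay above every WT sample and sample 2 lay among them. The log2 fold change was 0.38 (SE 0.122, 95% interval 0.12 to 0.63, edgeR adjusted p = 0.208), a 1.3-fold difference. The value depended on single libraries, being 0.24 without *Hvem*-/- sample 6 (adjusted p = 0.568) and 0.52 without *Hvem*-/- sample 2 (adjusted p = 0.0268). Corrected for GC content and length it was 0.25 (edgeR adjusted p = 0.499). At 95% identity or more, 4 processed pseudogenes match *Npm1*, and how reads shared with them were counted was not given in the sources used here.

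*Ncl*, which encodes nucleolin, the chaperone of newly made pre-rRNA, varied little between replicates. Its normalized counts were 4131, 4310.0 and 4107 in WT and 4539, 4573 and 4637 in *Hvem*-/-. The groups did not overlap, with every *Hvem*-/- sample above every WT sample, as for 8.74% of all genes tested. The difference was small, a log2 fold change of 0.13 (SE 0.098, 95% interval -0.08 to 0.33, adjusted p = 0.653) or 1.09-fold, with means of 4183 ± 111 and 4583 ± 49.8 (SD, n = 3 each).

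*Mybbp1a*, a nucleolar protein that restrains rDNA transcription and carries an E-box at base 41 of its transcript, had normalized counts of 551, 512 and 434 in WT and 395, 555 and 421 in *Hvem*-/-. The groups overlapped, with a log2 fold change of -0.13 (SE 0.149, adjusted p = 0.793) that turned to 0.02 after correction for GC content and length. It was -0.06 without *Hvem*-/- sample 6 and -0.29 without *Hvem*-/- sample 4. *Ddx21*, the RNA helicase that links RNA polymerase I and II output, had 445, 515 and 477 against 525, 491 and 484 (log2 fold change 0.06). *Npm3*, a small relative of nucleophosmin, was too low to test, at 1, 2 and 0 reads for WT against 0, 4 and 7 for *Hvem*-/-.

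*Npm1* made up the largest share of the members' total in every sample. The members' summed normalized count was 0.749%, 0.791% and 0.792% of the whole table in WT samples 1, 3 and 5 and 0.782%, 0.842% and 0.880% in *Hvem*-/- samples 2, 4 and 6. *Npm1* was 32.0%, 34.1% and 32.4% of that sum in WT and 33.4%, 38.2% and 42.0% in *Hvem*-/-. Without *Npm1* the sums were 0.510%, 0.521% and 0.536% in WT and 0.521%, 0.520% and 0.510% in *Hvem*-/-. As a share of the table the *Hvem*-/- samples thus fell inside the WT range. As normalized counts those sums were 14044, 14785 and 14545 in WT and 14554, 15259 and 15117 in *Hvem*-/-. On that scale *Hvem*-/- samples 4 and 6 lay above every WT sample even without *Npm1*. A bulk sample cannot tell fewer cells that express a gene from less RNA in each cell.

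**Figure D2:**
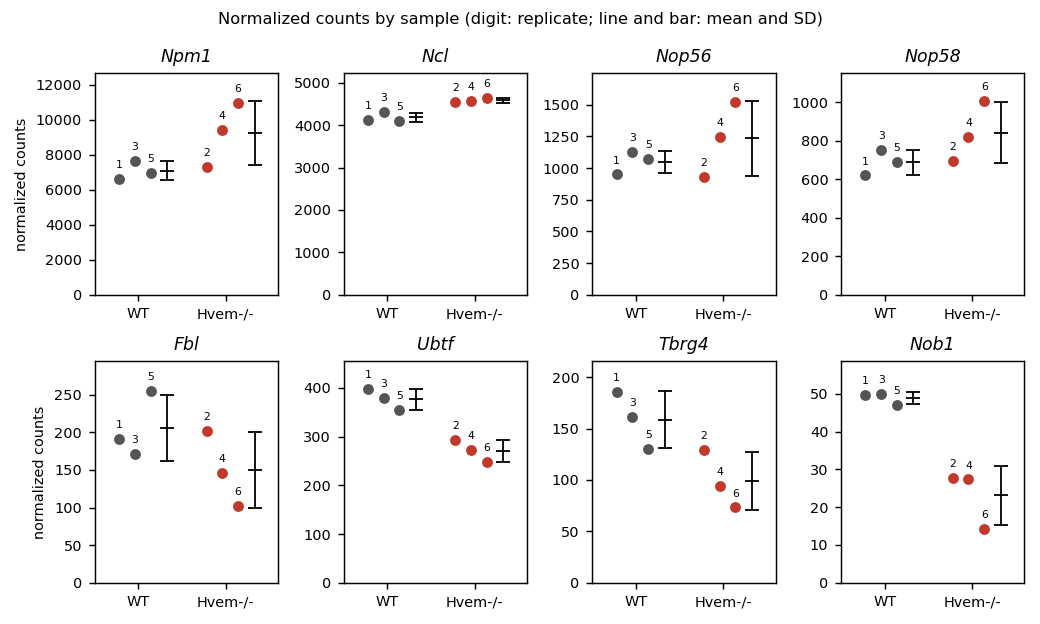
Normalized counts (y axis, from 0, a separate scale in each panel) of 8 ribosome biogenesis genes in each WT and *Hvem*-/- sample, with the replicate number above each point and a line and bar for the mean and SD of 3 samples. *Npm1*, *Nop56* and *Nop58* are highest in *Hvem*-/- sample 6, where *Fbl*, *Ubtf*, *Tbrg4* and *Nob1* are lowest, while *Ncl* separates the groups with little spread.

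Among the 6 genes for RNA polymerase I transcription, the median log2 fold change was -0.08, with 2 above 0 and 4 below. *Ubtf* (chr11:102304560-102319742, - strand) encodes UBF, the architectural factor that keeps ribosomal DNA open, and it had the smallest p of all members. Its normalized counts were 397, 378 and 354 in WT and 293, 272 and 247 in *Hvem*-/-. Every *Hvem*-/- sample lay below every WT sample, as for 8.09% of all genes tested. The means were 377 ± 21.8 and 271 ± 22.9 (SD, n = 3 each), 0.717-fold, with a log2 fold change of -0.48 (SE 0.143, 95% interval -0.78 to -0.18, adjusted p = 0.178). Corrected for GC content and length the log2 fold change was -0.33 (adjusted p = 0.426), and without *Hvem*-/- sample 6 it was -0.42 (adjusted p = 0.410).

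The polymerase subunits lay on both sides of 0. *Polr1a*, the largest catalytic subunit, had normalized counts of 235, 179.8 and 245 in WT and 233, 209 and 158 in *Hvem*-/- (log2 fold change -0.14, SE 0.183, adjusted p = 0.808). *Polr1b*, the other large subunit, had 60.5, 44.4 and 21.7 against 57.9, 54.8 and 46.1 (0.34, SE 0.345, adjusted p = 0.747), where WT sample 5 was the low one. Without WT sample 5 *Polr1b* was at 0.012 and without WT sample 1 at 0.70, and *Polr1a* was at -0.0018 without *Hvem*-/- sample 6. The groups overlapped for both.

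*Polr1c*, a subunit shared with RNA polymerase III, had normalized counts of 113, 89.9 and 109.8 in WT and 125, 133 and 96.9 in *Hvem*-/- (log2 fold change 0.18, SE 0.212, adjusted p = 0.793). Its log2 fold change was 0.30 without *Hvem*-/- sample 6, and 0.08 without WT sample 3 or without *Hvem*-/- sample 4. *Tcof1*, which encodes treacle, the partner of UBF and the most abundant of these 6 per kilobase at 106, had 478, 513 and 484 against 507, 427 and 466 (-0.08, SE 0.130, adjusted p = 0.851). *Rrn3*, whose promoter carries both E-boxes shown above, had 180, 217 and 173 against 195, 182 and 162 (-0.08). None of these 3 separated the groups.

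The snoRNP and rRNA modification genes (7, median log2 fold change -0.05, 3 above 0 and 4 below) lay on both sides of 0 even within a single particle. Box C/D snoRNPs carry *Nop56* and *Nop58*, the paired scaffold proteins, and *Fbl*, fibrillarin, the methyltransferase. *Nop56* had normalized counts of 950.0, 1125 and 1072 in WT and 931, 1249.5 and 1524 in *Hvem*-/- (log2 fold change 0.23, SE 0.144, 95% interval -0.07 to 0.53, adjusted p = 0.566). *Nop58* had 620.0, 752 and 691 against 695, 820.4 and 1007 (0.28, SE 0.137, adjusted p = 0.421). For both genes *Hvem*-/- samples 4 and 6 were above all WT samples and sample 2 was not, and without sample 6 the values were 0.06 and 0.14. As a ratio, *Nop56* was 1.53, 1.496 and 1.55 times *Nop58* in WT and 1.34, 1.52 and 1.51 times in *Hvem*-/-.

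*Fbl* (chr7:28169710-28179269, + strand) had a lower mean in *Hvem*-/-. Its normalized counts were 191, 171 and 255 in WT and 202, 147 and 102 in *Hvem*-/-, overlapping because *Hvem*-/- sample 2 lay above WT samples 1 and 3. The means were 206 ± 44.1 and 150.0 ± 50.05 (SD, n = 3 each) and the log2 fold change was -0.47 (SE 0.222, adjusted p = 0.410). It was -0.26 without *Hvem*-/- sample 6, -0.27 without WT sample 5 and -0.73 without *Hvem*-/- sample 2 (adjusted p = 0.137). As a share of *Nop58*, *Fbl* was 30.9%, 22.7% and 37.0% in WT and 29.0%, 17.9% and 10.1% in *Hvem*-/-.

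The other modification genes overlapped between the genotypes where values per sample are given. *Nolc1*, a nucleolar and Cajal body chaperone of snoRNPs, had normalized counts of 217, 264 and 327 in WT and 212, 255 and 195 in *Hvem*-/- (log2 fold change -0.29, SE 0.176, adjusted p = 0.546, and -0.12 without WT sample 5). *Dkc1*, dyskerin, the pseudouridine synthase of box H/ACA snoRNPs, had 905, 1105 and 995 against 977, 1094 and 1049 (0.05, SE 0.117, adjusted p = 0.905). *Nop2*, an rRNA cytosine methyltransferase, and *Nat10*, the rRNA acetyltransferase, were at -0.18 and -0.05.

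Within their bounds and on their strand 8 members hold annotated snoRNA genes, 23 in all. Whether each lies in an intron, from which splicing of the host transcript would supply the guide RNA, was not checked. *Nop56* holds 5, *Nop58* 4, *Gnl3*, *Wdr43* and *Ncl* 3 each, *Ppan* and *Tbrg4* 2 each and *Dkc1* 1. The 8 hosts had a median log2 fold change of 0.09, with 5 above 0 and 3 below. The 37 tested members without one had a median of -0.08, with 15 above 0 and 22 below, and the difference was not tested.

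Small subunit genes (12, median log2 fold change -0.03, 5 above 0 and 7 below) held the member with the largest difference. *Nob1* (chr8:107412486-107425051, - strand) encodes the endonuclease that makes the last cut of small subunit rRNA in the cytoplasm. Its normalized counts were 49.8, 49.9 and 47 in WT and 27.8, 27.4 and 14.2 in *Hvem*-/-. Every *Hvem*-/- sample was well below the WT samples, whose values lay close together. Of all genes tested, 8.09% had every *Hvem*-/- sample below every WT sample. The means were 48.9 ± 1.63 and 23.1 ± 7.75 (SD, n = 3 each), 0.477-fold (95% interval 0.285 to 0.798), with a log2 fold change of -1.07 (SE 0.357, adjusted p = 0.220). The gene rests on few reads, 51, 45 and 63 in WT and 25, 31 and 12 in *Hvem*-/-. Across the alternatives its log2 fold change ran from -1.21 to -0.82, the latter without *Hvem*-/- sample 6, and it was -0.94 with the GC correction.

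The early assembly factors of the small subunit processome lay closer to 0. *Heatr1*, which also promotes rDNA transcription, had normalized counts of 315, 303 and 369 in WT and 388, 390.3 and 345 in *Hvem*-/- (log2 fold change 0.18, SE 0.143, adjusted p = 0.666). *Utp20* had 272, 307 and 389 against 333, 319 and 433 (0.15, SE 0.163, adjusted p = 0.768), and was at 0.0058 without *Hvem*-/- sample 6 and 0.32 without WT sample 5. *Wdr43*, the most abundant of the group per kilobase at 183, had 599, 671 and 637 against 630.4, 643 and 607 (-0.03, SE 0.121, 95% interval -0.28 to 0.23, adjusted p = 0.956). These 3 genes overlapped between the genotypes.

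*Rcl1*, a low member needed for an early cleavage of the precursor, had normalized counts of 41, 31.1 and 35.1 in WT and 34.5, 28.3 and 26 in *Hvem*-/- (log2 fold change -0.28, SE 0.355, adjusted p = 0.809). The remaining 7, *Noc4l*, *Wdr75*, *Nop14*, *Imp4*, *Rrp9*, *Bysl* and *Rrp12*, lay between -0.19 and 0.16.

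Large subunit genes formed the biggest group (15, median log2 fold change -0.10, 7 above 0 and 8 below), and none of them had an unadjusted p under 0.05, as did 11.9% of all genes tested. *Wdr12*, *Pes1* and *Bop1* form the PeBoW complex, which processes large subunit rRNA. *Wdr12* had normalized counts of 98.6, 74.3 and 73.9 in WT and 109, 92.7 and 134 in *Hvem*-/- (log2 fold change 0.43, SE 0.229, 95% interval -0.04 to 0.91, adjusted p = 0.475). *Pes1* had 208, 176 and 221 against 158, 177 and 148 (-0.33, SE 0.174, adjusted p = 0.473). *Hvem*-/- sample 4 lay among the WT samples for both, and *Bop1* was at -0.10 (SE 0.292, adjusted p = 0.928), so that the 3 partners lay on both sides of 0.

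*Gnl3*, nucleostemin, a GTP-binding protein of proliferating cells, had normalized counts of 161, 129.8 and 177 in WT and 194, 173 and 209 in *Hvem*-/- (log2 fold change 0.29, SE 0.181, adjusted p = 0.566), with sample 4 of *Hvem*-/- just below WT sample 5. *Pa2g4*, which encodes a protein that binds the exit tunnel of the large subunit, was the most abundant of the group at 358 per kilobase, with 848, 951 and 856 in WT and 921, 1051 and 711 in *Hvem*-/-. Its log2 fold change was 0.01 (SE 0.135, 95% interval -0.27 to 0.30, adjusted p = 0.984), and the sign turned in 8 of the 13 alternatives. *Grwd1*, a histone-binding protein of pre-ribosomes, had 26.4, 32.2 and 35.8 against 21.2, 30.9 and 7.09 (-0.65, SE 0.459, adjusted p = 0.611), a value set mainly by *Hvem*-/- sample 6, since it was -0.27 without that library and -1.14 without *Hvem*-/- sample 4.

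Of the other 9 large subunit genes, *Mrto4*, *Rrp1b*, *Ddx18* and *Las1l* had log2 fold changes of 0.18, 0.17, 0.13 and 0.03. *Nip7*, *Ppan*, *Nop16*, *Wdr74* and *Exosc5* were at -0.12, -0.36, -0.36, -0.37 and -0.41. *Exosc5*, a subunit of the RNA exosome, rested on 3 to 18 reads a sample.

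*Tbrg4* (chr11:6615598-6626067, - strand) stands outside these roles, since it encodes a mitochondrial RNA-binding protein of the FASTK family, although it hosts 2 snoRNA genes. Its normalized counts were 186, 161 and 129.9 in WT and 129, 94.5 and 73.3 in *Hvem*-/-. Every *Hvem*-/- sample lay below every WT sample, as for 8.09% of all genes tested, but WT sample 5 and *Hvem*-/- sample 2 nearly met. The means were 159 ± 27.8 and 99 ± 28.2 (SD, n = 3 each), 0.624-fold, with a log2 fold change of -0.68 (SE 0.225, 95% interval -1.15 to -0.21, adjusted p = 0.217). It was -0.51 without *Hvem*-/- sample 6 and -0.46 with the GC correction.

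*Hvem*-/- sample 6 stood apart from the other 5 in these genes. It gave the highest value of the 6 samples in 12 of 45 members and the lowest in another 12 (26.7% each), and over all genes tested it was highest in 24.99% and lowest in 25.6%. The interquartile range of its members' deviations from their gene means was 0.497 on the log2 scale, against 0.256 to 0.320 in the other 5. The members' median deviation lay near 0 in every sample, at 0.02, -0.03 and 0.07 in WT and 0.0055, 0.0028 and -0.05 in *Hvem*-/-.

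**Figure D3:**
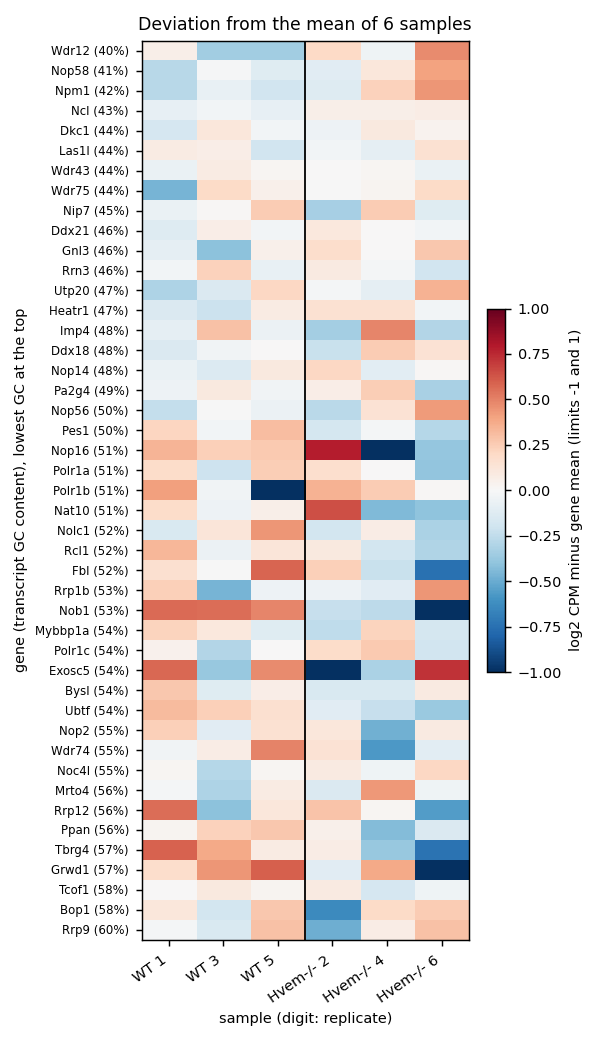
Deviation of each of the 45 tested genes (rows, with the GC content of the longest transcript, lowest at the top) from its mean over the 6 samples (columns), in log2 CPM, coloured from blue (lower) to red (higher) with colours limited to -1 and 1. *Hvem*-/- sample 6 has the strongest colours, red mostly among the upper rows (*Wdr12*, *Nop58*, *Npm1*) and blue among lower ones (*Nob1*, *Tbrg4*, *Grwd1*). Some lower rows are red in it too (*Rrp1b*, *Bop1*, *Rrp9*), and its reddest cell is *Exosc5*, also a lower row.

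The members' fold changes ran with the GC content of their transcripts. Across the 45 members Pearson's r between log2 fold change and GC content was -0.53, against -0.38 across 9534 tested genes with an annotated transcript (the longest of any kind for each gene). Genes of 1 library share its depth and amplification, so these are descriptions across genes, which are not independent replicates. Among the 15 members with the lowest GC content (40.4% to 47.6%) the median log2 fold change was 0.12, with 11 above 0. Among the next 15 (48.0% to 53.7%) it was -0.13 with 6 above 0, and among the 15 with the highest (53.7% to 59.9%) it was -0.18 with 3 above 0.

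After a correction for GC content and transcript length fitted over all genes, the medians of these 3 groups of genes were 0.05, 0.02 and 0.01, each with 9 of 15 genes above 0, and r was -0.18. *Npm1*, *Nop58*, *Ncl* and *Wdr12* are among the members with the lowest GC content, while *Ubtf*, *Tbrg4* and *Grwd1* are among the 15 with the highest. Corrected, *Npm1* was at 0.25, *Nop58* at 0.17, *Ncl* at 0.07 and *Wdr12* at 0.29. *Ubtf* was at -0.33, *Tbrg4* at -0.46 and *Grwd1* at -0.45. Each of these was smaller in size than its uncorrected value. Within samples, r between a member's deviation and its GC content was 0.55, 0.01 and 0.42 in WT samples 1, 3 and 5 and -0.14, -0.20 and -0.35 in *Hvem*-/- samples 2, 4 and 6. All genes tested gave 0.29, 0.07 and 0.28 in WT and -0.0032, -0.09 and -0.39 in *Hvem*-/-.

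**Figure D4:**
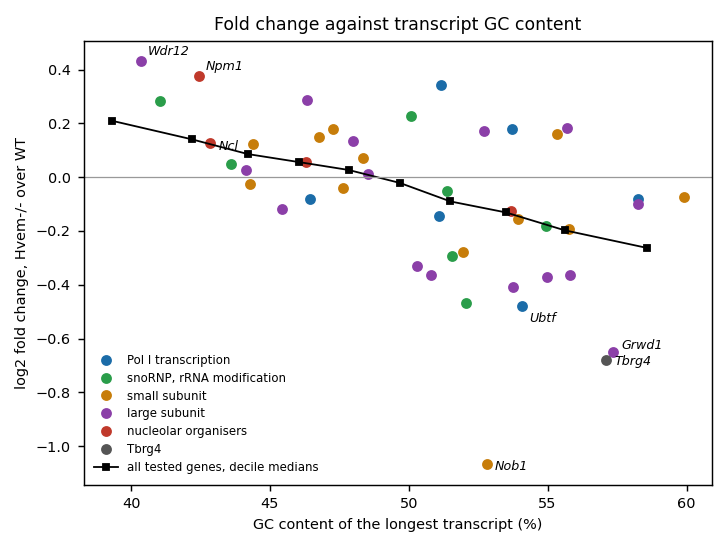
Log2 fold change (y axis, *Hvem*-/- over WT) of the 45 tested ribosome biogenesis genes against the GC content of the longest transcript (x axis, %), coloured by role, with black squares for the medians of all tested genes in 10 bins of GC content. The squares fall from 0.21 to -0.26, and members lie on both sides of that line, with *Nob1* at -1.07 farthest below it.

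Other genes of the pathway were counted by the same rules. A list of 121 other ribosome biogenesis genes had 119 in the table and 117 tested. Past the threshold were 0 of 117 by edgeR, DESeq2 and limma alike, with a smallest adjusted p of 0.292 in edgeR. At an unadjusted p under 0.05 there were 4 higher and 2 lower, or 5.13% beside 11.9% of all genes tested. The median log2 fold change was 0.02, with 64 above 0 and 53 below.

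*Znhit6*, a box C/D snoRNP assembly factor, had the smallest p of that list, with normalized counts of 79.1, 83.2 and 61.2 in WT and 125.9, 91.0 and 124 in *Hvem*-/- (log2 fold change 0.61, SE 0.232, adjusted p = 0.292). *Esf1* and *Urb2*, factors of pre-rRNA processing, were at 0.31 and 0.31 (adjusted p = 0.361 and 0.378). *Ddx55* is an RNA helicase, *Ttf1* the terminator of RNA polymerase I transcription and *Rrp1* the close relative of *Rrp1b*. They were at -0.57, -0.44 and -0.34 (edgeR adjusted p = 0.352, 0.370 and 0.420). Without *Hvem*-/- sample 6 they were at -0.35, -0.40 and -0.15.

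*Myc* itself had normalized counts of 221, 336 and 282 in WT and 311, 340 and 541 in *Hvem*-/-. *Hvem*-/- sample 6 was far above the others and sample 2 lay within the WT range. The log2 fold change was 0.50 (SE 0.191, edgeR adjusted p = 0.293), and it was 0.22 without *Hvem*-/- sample 6.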

How the data were processed

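RNA from sorted GC B cells was amplified with the Ovation RNA-seq System V2, and sequenced as paired ends. For alignment the authors name STAR, followed by DESeq2, without versions. The submitters' processing notes instead name TopHat2 2.0.8b and Cufflinks 2.1.1, beside CASAVA and build mm10. The values the authors deposited per sample are a signal, read counts divided by a size factor. All were whole multiples of 1 read (tolerance 1e-06), and the reads so recovered were tested in R 4.3.3 with edgeR 4.0.16 (filterByExpr, TMM, quasi-likelihood F test on genotype, Benjamini-Hochberg over 9653 genes, threshold 0.01). The SE was the size of the log2 fold change divided by the root of the F statistic. The deposited table also holds the authors' own fold changes and p-values, which were not used.

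The members and lists were chosen with earlier results of these data known. Values per sample are given for members with an unadjusted p under 0.05 and, within each role, for the most abundant member per kilobase and for up to 2 of smallest p in each direction. *Dkc1*, *Ddx21*, *Npm3* and *Rrn3* were added after their values were seen. Positions, overlaps and the GC content and length of each gene's longest transcript came from GENCODE vM21 (GRCm38), as did the principal transcript that levels per kilobase use, and 98.8% of tested genes had a value. Exons of 18 members overlap a gene on the other strand (*Nop56* and *Idh3b*, *Wdr12* and *Carf*, *Gnl3* and *Pbrm1* among them) and 9 members have processed pseudogenes of at least 95% identity over 200 bases. Whether counting used strand was not given in the sources used here, so these genes are uncertain. Alternatives were DESeq2 1.42.0, limma 3.58.1 on log2(normalized count + 1 or 0.5), upper-quartile factors, no filter, at least 50 reads in 3 samples, a loess correction for GC content and length (span 0.5), an adjusted p under 0.05, and leaving out each sample.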

Additional observations from a re-analysis of the deposited data

How the results depend on the processing

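No member passed an adjusted p of 0.01 under any alternative run, nor did any of the other ribosome biogenesis genes. The smallest adjusted p of a member came from *Npm1*, at 0.0268 without *Hvem*-/- sample 2 and 0.0466 with no filter on low counts. Over all genes the 21 past the threshold became 52 with DESeq2, 84 with no filter, 13 with limma at a pseudocount of 0.5, 10 with the GC and length correction and 49 at an adjusted p under 0.05, and 3 to 31 with a sample left out (3 without WT sample 1, 13 without WT sample 3, 12 without *Hvem*-/- sample 4). The members' median log2 fold change of -0.05 was 0.00068 with at least 50 reads in 3 samples (38 members), 0.018 with the GC and length correction, -0.079 with limma at either pseudocount, -0.072 with upper-quartile factors, and -0.050 to 0.012 with a sample left out. Its size is near the spread between replicates (SD 0.0399).

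Of 23 members named with values by rule, 18 kept their sign in each alternative run for them, 13 for most and 12 for *Nob1*, *Grwd1* and *Rcl1*, which were too low for the filter of 50 reads. Leaving out a single sample moved the log2 fold change of 17 of the 23 by over 1.5 times, the other 6 being *Ncl*, *Ubtf*, *Nob1*, *Tbrg4*, *Pes1* and *Wdr12*. With the GC and length correction *Mybbp1a* became 0.018, *Tcof1* 0.18 and *Polr1a* 0.018. *Pa2g4* became -0.011 with upper-quartile factors, -0.0055 with at least 50 reads and -0.0019 with limma at either pseudocount, and *Pa2g4* lay between -0.12 and 0.16 with a sample left out. *Wdr43* lay between -0.067 and 0.012 with a sample left out, above 0 without WT sample 3 (0.012) and without *Hvem*-/- sample 6 (0.0012). With 3 samples a genotype and 2505918 to 3636163 reads each, members under 100 reads, *Nob1* among them, have wide intervals. No paired analysis was possible because the WT samples are numbered 1, 3 and 5 and the *Hvem*-/- samples 2, 4 and 6, and no source used here says which of them share a chimera, although the study places both genotypes in the same chimeras.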
